A study of Rattus norvegicus with 35 samples.

Results

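Ces2c, Ces1d, Ces1c, Acsm5, Acsm3, Acsm2, Glyat, Acy3 and Acy1 encode carboxylesterases, acyl-CoA synthetases, a glycine N-acyltransferase and aminoacylases, enzymes of ester hydrolysis, of the joining of acids to glycine and of the release of amino acids from N-acyl conjugates. They were followed across the dose groups of a rat liver study of the flame retardant TBB, which is itself an ester of tetrabromobenzoic acid. All 9 had a probe set annotated with their symbol alone, out of 14217 genes measured that way, and they had 10 such probe sets between them. The probe set with the highest mean over the 35 arrays stands for each gene. The 9 were chosen by their function with the measured log2 differences of the comparison of 550 mg/kg with vehicle in view, in which Ces2c, Acsm5 and Acy3 had passed the threshold. For the 9 genes that comparison, and 550 mg/kg against 55 mg/kg, are therefore given below as descriptions. The number of the 9 past the threshold there is printed for the record and supports nothing.

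Male Harlan Sprague Dawley rats, 7 weeks old when dosing began, received corn oil alone or TBB in corn oil by gavage, at 5 ml/kg body weight, on 5 consecutive days. Livers came from vehicle rats (n = 5) and from rats given 0.05, 0.55 and 5.50 mg/kg, 55 mg/kg and 550 mg/kg of the compound (n = 6 each), and necropsy followed 1 day after the last dose. Strain, sex, diet, vehicle and liver lobe were common to all 6 groups. RNA was hybridised to single-colour Affymetrix arrays with 31042 tested probe sets, and every level below is a log2 RMA value, so that a difference of 1 is a doubling. The labels name the arrays of a group as separate samples without stating that each is a separate animal, so p-values measure only how far these samples scatter, and that scatter may be technical. The labels name no batch.

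Carboxylesterases cut ester bonds in the endoplasmic reticulum of hepatocytes and release an acid and an alcohol. Benzoic acid and related acids are then joined to coenzyme A by medium-chain acyl-CoA synthetases of the ACSM family in mitochondria, and glycine N-acyltransferase passes the acyl group to glycine, which in the case of benzoate gives hippuric acid. Aminoacylases run in the opposite direction and free amino acids from N-acyl conjugates. These steps are established for simple benzoates, and none of them was measured here beyond the transcripts.

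Promoters are printed so that their sequences can be set beside the values. They are from the 3 genes past the threshold at 550 mg/kg against vehicle, and from Acsm2, which moved with Acsm5 between arrays. They span 250 bases before to 50 after the gene start in RefSeq (GRCr8, all on the plus strand) and lie at chr1:270376951-270377250 (Ces2c), chr1:183302259-183302558 (Acsm5), chr1:183347455-183347754 (Acsm2) and chr1:210709087-210709386 (Acy3). Capitals mark matches, on either strand, to the xenobiotic response element core GCGTG, the nuclear receptor half-site AGGTCA, the E-box CACGTG, the antioxidant response element core TGACNNNGC or the TATA box TATAAA.
Ces2c: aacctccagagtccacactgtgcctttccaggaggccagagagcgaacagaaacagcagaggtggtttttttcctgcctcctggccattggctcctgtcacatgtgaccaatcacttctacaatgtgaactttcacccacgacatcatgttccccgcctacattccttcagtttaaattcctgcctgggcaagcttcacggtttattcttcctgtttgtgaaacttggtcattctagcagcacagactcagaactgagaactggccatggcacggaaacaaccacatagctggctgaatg
Acsm5: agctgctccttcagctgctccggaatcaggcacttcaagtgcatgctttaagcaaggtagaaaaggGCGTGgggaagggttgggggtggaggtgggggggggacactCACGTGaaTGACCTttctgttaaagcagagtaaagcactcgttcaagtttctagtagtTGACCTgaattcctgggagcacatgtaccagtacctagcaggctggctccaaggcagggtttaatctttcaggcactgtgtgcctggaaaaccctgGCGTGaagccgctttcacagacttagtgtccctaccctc
Acsm2: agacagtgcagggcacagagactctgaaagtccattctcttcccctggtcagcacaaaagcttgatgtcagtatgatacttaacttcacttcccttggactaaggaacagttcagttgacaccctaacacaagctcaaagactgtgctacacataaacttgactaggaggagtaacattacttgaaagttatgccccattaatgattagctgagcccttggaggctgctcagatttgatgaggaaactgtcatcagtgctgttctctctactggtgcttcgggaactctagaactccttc
Acy3: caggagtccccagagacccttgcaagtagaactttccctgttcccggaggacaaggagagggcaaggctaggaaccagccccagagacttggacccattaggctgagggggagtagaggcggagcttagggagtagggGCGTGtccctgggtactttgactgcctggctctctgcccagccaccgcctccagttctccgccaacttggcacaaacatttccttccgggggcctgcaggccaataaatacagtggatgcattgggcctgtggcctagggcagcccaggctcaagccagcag

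Of the 8 members with a promoter entry, 4 held GCGTG (Ces1d, Acsm5, Acy3 and Acy1), against 29.7% of 33469 rat promoters of the same length. AGGTCA was present in 2 of the 8 (Acsm5 and Acsm3), against 16.2% of all promoters, and CACGTG in 1 (Acsm5), against 6.42%. None of the 8 held TGACNNNGC or TATAAA, which occurred in 12.1% and 14.2% of all promoters. The windows of Ces2c and Acsm2 held none of the 5 motifs. No motif overlapped another in the printed sequences. A match is a run of letters and was not tested as a binding site.

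Among the ester hydrolases, Ces2c, a microsomal carboxylesterase, had a lowest, median and highest value of 7.55, 7.67 and 7.89 at 550 mg/kg, against 7.26, 7.47, 6.98, 7.35 and 7.42 in the 5 vehicle arrays. All 6 arrays at 550 mg/kg lay above the highest vehicle array. The difference was 0.38 ± 0.09 (SE), or 1.30-fold. The other dose groups stayed near the vehicle level of 7.30 ± 0.19 (SD, n = 5), with means of 7.23 ± 0.07, 7.30 ± 0.15, 7.29 ± 0.19 and 7.28 ± 0.09 (SD, n = 6 each) at 0.05, 0.55, 5.50 and 55 mg/kg. The 550 mg/kg mean of 7.68 ± 0.12 was the highest of the 6, and the other 5 lay between 7.23 and 7.30.

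Ces1d, a carboxylesterase of the endoplasmic reticulum that also acts on stored triacylglycerol, had a lowest, median and highest value of 12.39, 12.79 and 12.86 at 550 mg/kg, against 12.56, 12.76, 12.65, 12.69 and 12.44 in vehicle. The groups overlapped, and the difference was 0.10 ± 0.11 (SE). Its group means from vehicle upward were 12.62 ± 0.12, 12.41 ± 0.16, 12.55 ± 0.16, 12.60 ± 0.27, 12.53 ± 0.18 and 12.72 ± 0.18 (SD), in no dose order.

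Ces1c, in rodents a carboxylesterase secreted into plasma, varied little and was 13.25, 13.30 and 13.42 (lowest, median and highest) at 550 mg/kg, against 13.21, 13.18, 13.07, 13.18 and 13.14 in vehicle. The ranges did not overlap, although the gap was small and the difference was 0.15 ± 0.06 (SE), or 1.11-fold. Its means from vehicle upward were 13.16 ± 0.05, 13.18 ± 0.12, 13.18 ± 0.10, 13.22 ± 0.12, 13.21 ± 0.12 and 13.30 ± 0.06 (SD). A second Ces1c probe set, near the bottom of the scale with a vehicle mean of 3.37 ± 0.09, differed by 0.11 ± 0.11 at 550 mg/kg and its groups overlapped.

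Among the acyl-CoA synthetases, Acsm5 showed the widest difference of the 9 genes at 550 mg/kg. Its lowest, median and highest values were 8.18, 8.57 and 9.003 at 550 mg/kg, against 7.54, 7.91, 6.88, 7.50 and 8.02 in vehicle, so that the groups did not overlap. The difference was 0.98 ± 0.22 (SE), or 1.97-fold. The means were 7.57 ± 0.45, 7.56 ± 0.37, 7.94 ± 0.48, 8.01 ± 0.37, 7.97 ± 0.37 and 8.55 ± 0.31 (SD) from vehicle to 550 mg/kg. Vehicle and 0.05 mg/kg were lowest and did not differ beyond their SDs, and neither did the next 3 doses among themselves. Each of those 3 means lay above the vehicle mean, by less than 1 SD of the single vehicle arrays. Measured by its standard error, the difference of 55 mg/kg from vehicle was 0.40 ± 0.22 (SE).

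Acsm2, a synthetase of kidney and liver that accepts benzoate and medium-chain acids, had a lowest, median and highest value of 6.93, 7.45 and 7.81 at 550 mg/kg, against 6.82, 7.35, 6.12, 7.33 and 7.05 in vehicle. The groups overlapped, although 4 of the 6 arrays at 550 mg/kg lay above every vehicle array, and the difference was 0.50 ± 0.23 (SE). Its means from vehicle upward were 6.93 ± 0.50, 6.99 ± 0.44, 7.04 ± 0.54, 7.18 ± 0.25, 6.99 ± 0.38 and 7.43 ± 0.31 (SD). Vehicle replicate 3 was the lowest vehicle array for Ces2c, Acsm5 and Acsm2 as well as for Ces1c and Acsm3. Without it the 550 mg/kg differences were 0.30 for Ces2c, 0.81 for Acsm5 and 0.30 for Acsm2, the last less than the original by more than 1.5 times.

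Acsm3, another mitochondrial synthetase of the family, had overlapping groups at 550 mg/kg. Its lowest, median and highest values there were 9.40, 9.72 and 9.91, against 9.68, 9.46, 9.43, 9.64 and 9.68 in vehicle, a difference of 0.09 ± 0.08 (SE). The 6 group means lay between 9.58 ± 0.12 (vehicle) and 9.67 ± 0.20 (550 mg/kg).

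Glyat, glycine N-acyltransferase itself, was 9.84, 9.98 and 10.10 (lowest, median and highest) at 550 mg/kg, against 9.82, 10.01, 9.86, 9.90 and 9.71 in vehicle. The groups overlapped and the difference was 0.11 ± 0.08 (SE). Its means from vehicle upward were 9.86 ± 0.11, 9.74 ± 0.14, 9.93 ± 0.06, 9.86 ± 0.19, 9.91 ± 0.13 and 9.97 ± 0.10 (SD).

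Acy3, an aminoacylase that prefers N-acetylated aromatic amino acids and also deacetylates mercapturic acids, was the member lowest against vehicle. Its lowest, median and highest values were 8.84, 9.14 and 9.52 at 550 mg/kg, against 9.92, 9.65, 9.68, 9.79 and 9.78 in vehicle. Every array at 550 mg/kg lay below the lowest vehicle array, with a difference of -0.63 ± 0.10 (SE), or 1.55-fold lower. Its means from vehicle upward were 9.76 ± 0.10, 9.66 ± 0.16, 9.78 ± 0.14, 9.56 ± 0.17, 9.65 ± 0.16 and 9.14 ± 0.26 (SD). The 550 mg/kg mean was the lowest, and the 5.50 mg/kg mean was the next lowest.

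Acy1, the cytosolic aminoacylase for aliphatic N-acetyl amino acids, was 9.99, 10.07 and 10.18 (lowest, median and highest) at 550 mg/kg, against 10.30, 10.05, 10.17, 10.21 and 10.15 in vehicle. These groups overlapped, the difference was -0.09 ± 0.06 (SE), and the other group means lay between 10.09 ± 0.07 at 0.05 mg/kg and 10.21 ± 0.09 at 0.55 mg/kg.

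**Figure D1:**
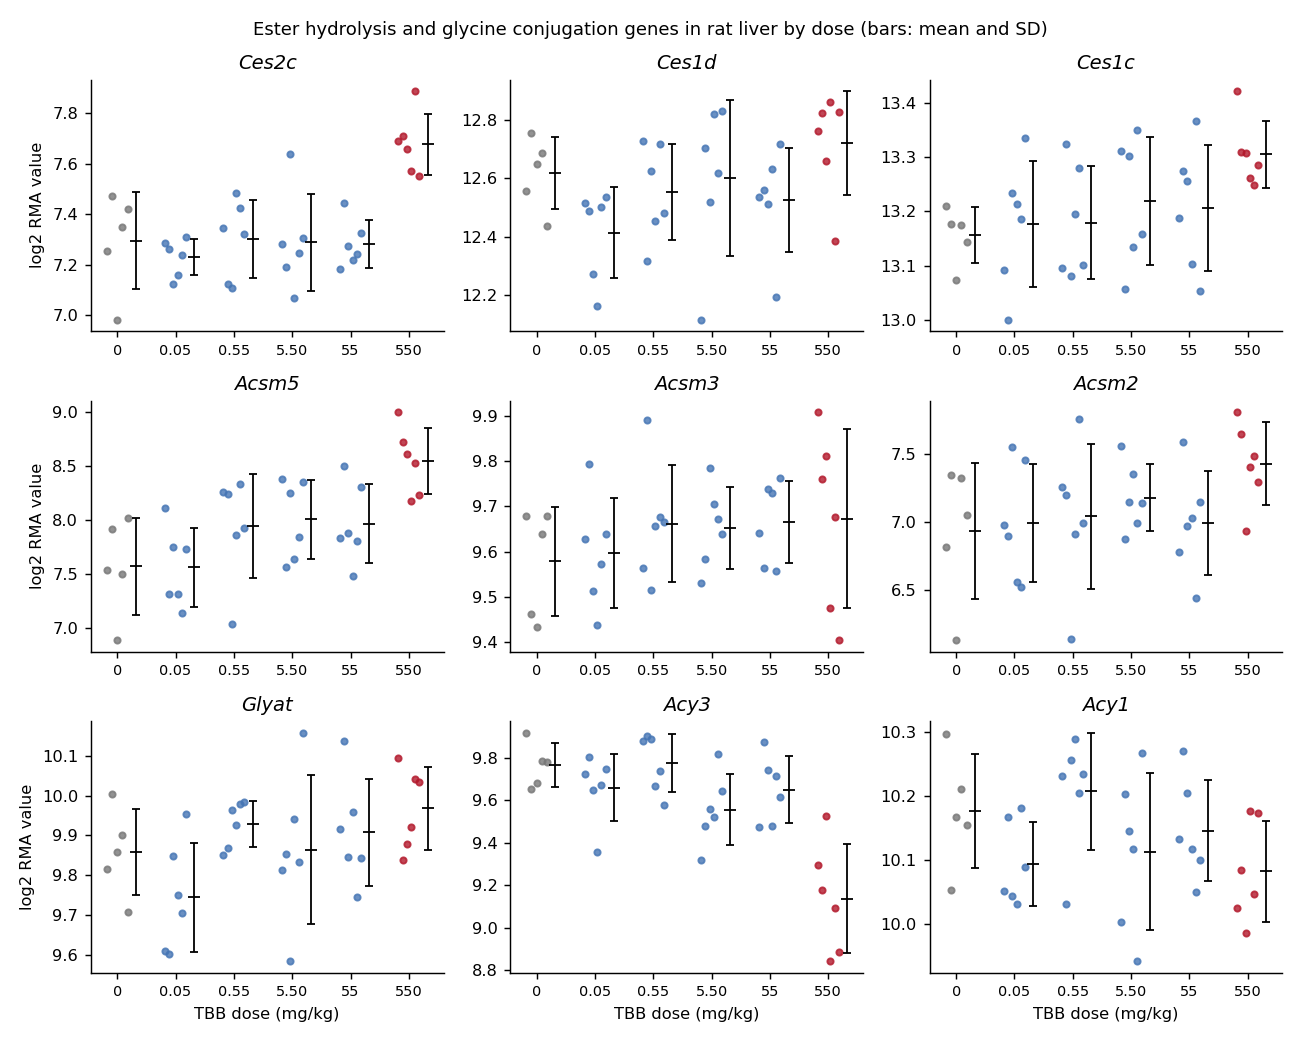
Log2 RMA values of the 9 genes (vertical axes) in each of the 35 arrays by TBB dose in mg/kg (horizontal axes, 0 is vehicle), with points for arrays and bars for the mean and SD of a group. The 550 mg/kg mean is the highest of the groups for Ces2c, Ces1d, Ces1c, Acsm5, Acsm3, Acsm2 and Glyat. It is the lowest for Acy3 and Acy1. The ranges of Ces2c, Ces1c, Acsm5 and Acy3 at that dose do not overlap those of vehicle.

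In limma, fitted over all probe sets with Benjamini-Hochberg adjustment and a threshold of adjusted p under 0.05, 3 of the 9 members passed at 550 mg/kg against vehicle, 2 higher (Ces2c and Acsm5) and 1 lower (Acy3), where 0.499% of all probe sets passed. The ranges of 4 of the 9 (these and Ces1c) did not overlap those of vehicle, where 1.34% of all probe sets did not. Both counts come from the comparison known when the genes were chosen, and nothing is read from them. The median difference of the 9 in that comparison was 0.11, against 0.0024 over all probe sets, and nothing is read from it either. The count was 1 when only these 2 groups were fitted, and also without vehicle replicate 1 or 3 or 550 mg/kg replicate 1, 2 or 5. In each of these settings the member left was Acy3, so Ces2c and Acsm5 no longer passed.

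Set against 55 mg/kg, which shares the 550 mg/kg arrays, Ces2c differed by 0.40 ± 0.08 (SE), Acy3 by -0.51 ± 0.10, Acsm5 by 0.58 ± 0.21 and Acsm2 by 0.44 ± 0.22. Of the 9, 1 passed higher (Ces2c) and 1 lower (Acy3) in limma, where 0.686% of all probe sets passed, and nothing is read from that count. Ces2c was the 1 member whose ranges did not overlap in this pair of groups, where 1.15% of all probe sets did not overlap. For Acy3, 5 of the 6 arrays at 550 mg/kg lay below the lowest array at 55 mg/kg, so the groups overlapped by 1 array, and 0.329% of all probe sets were lower at 550 mg/kg with no overlap.

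**Figure D2:**
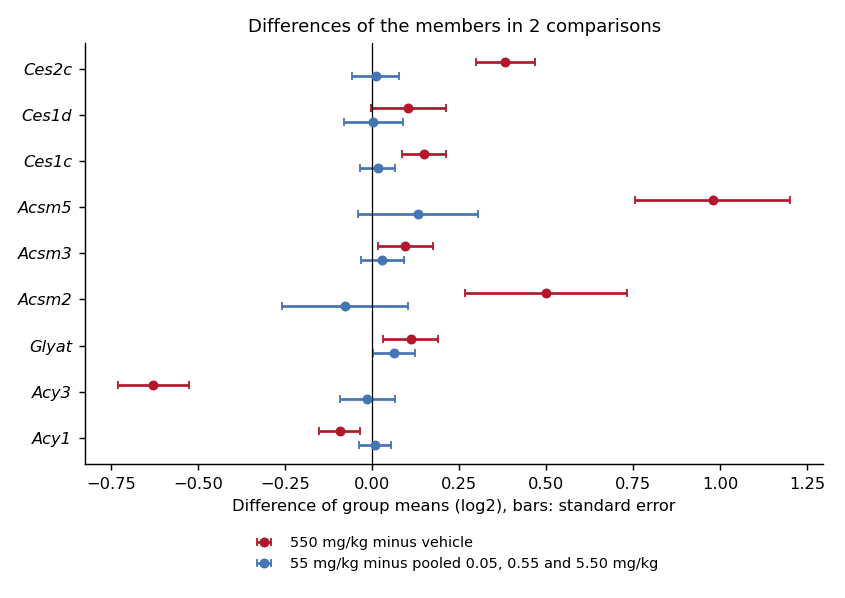
Differences of group means on the log2 scale (horizontal axis) for the 9 genes, with the standard error as bars, for 550 mg/kg minus vehicle (red) and for 55 mg/kg minus the pooled 0.05, 0.55 and 5.50 mg/kg groups (blue). Acsm5 reaches 0.98 and Acy3 -0.63 at 550 mg/kg, whereas the blue points lie between -0.08 and 0.13.

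Whether the members differed below the top dose was tested on arrays of neither 550 mg/kg nor vehicle. At 55 mg/kg (n = 6) against the pooled 0.05, 0.55 and 5.50 mg/kg groups (n = 18), 0 of the 9 passed in limma and 0 reached an unadjusted p under 0.05, where 0.00644% of all probe sets passed and 3.49% reached that unadjusted p. Acsm5 averaged 7.97 at 55 mg/kg and 7.84 in the pooled low doses, a difference of 0.13 with a 95% interval from -0.22 to 0.48 (limma, adjusted p = 1.0). Ces2c averaged 7.28 at 55 mg/kg and 7.27 in the pooled low doses, with an interval of the difference from -0.13 to 0.14. For Acy3 the means were 9.65 at 55 mg/kg and 9.66 in the pooled low doses, with an interval from -0.17 to 0.15. Each of these intervals leaves out the value described for the same gene at 550 mg/kg. That value is against vehicle, has an error of its own and was known when the genes were chosen, so no conclusion is drawn. Acsm2 had the lowest difference, -0.08 (95% interval -0.45 to 0.29), and Glyat differed by 0.06 (-0.06 to 0.19). Against vehicle, Acsm2 at 55 mg/kg differed by 0.06 (95% interval -0.41 to 0.53), which holds its difference of 0.50 at 550 mg/kg.

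The remaining comparisons also gave no calls among the 9 in limma. At 5.50 mg/kg against the pooled 0.05 and 0.55 mg/kg groups, 0 passed and 0 reached an unadjusted p under 0.05, where 0% of all probe sets passed and 4.38% reached that unadjusted p. Acy3 came nearest, at 9.56 at 5.50 mg/kg against 9.72 in the lower pair, a difference of -0.16 with a 95% interval from -0.33 to 0.01. At 55 mg/kg against vehicle 0 passed and 0 reached an unadjusted p under 0.05 (0.00644% of all probe sets passed, and 4.20% reached that unadjusted p). Acsm5 differed by 0.40 (95% interval -0.05 to 0.85), and by 0.23 without vehicle replicate 3. For the pooled 3 low doses against vehicle 0 passed and 0 reached an unadjusted p under 0.05 (0.00322% of all probe sets passed, and 5.12% reached that unadjusted p). The differences ran from -0.10 for Acy3 to 0.27 for Acsm5, the last of which was 0.09 without vehicle replicate 3. The last pair of comparisons shares the vehicle arrays with the comparison at 550 mg/kg.

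The members differed widely in how much they varied between arrays of 1 group. The pooled SD within groups was 0.41 for Acsm2 and 0.39 for Acsm5, at percentiles 98.1 and 97.9 of all probe sets, whose median was 0.14. Acy1 (0.089) and Ces1c (0.10) stood at percentiles 6.88 and 12.2. Of the 9 members, 5 lay above the median of all probe sets.

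This spread was shared between some members. Over the 35 arrays, with each array expressed as its deviation from its own group mean, Acsm2 and Acsm5 gave Pearson r = 0.72 and Spearman rho = 0.67 (permutation of arrays within groups, two-sided, 100000 resamples, p = 5.0e-05 and 1.0e-04, adjusted over 36 pairs of members p = 0.0018 and 0.0036). The correlation was 0.60 without the 2 arrays farthest from the median of Acsm5, 0.75 over the 29 arrays without 550 mg/kg, and above 0 in all 6 groups. Ces2c and Acsm5 gave r = 0.60 and rho = 0.63 (permutation, adjusted p = 0.0072 and 0.0036), with r = 0.56 without the 2 farthest arrays for Ces2c and 0.62 without 550 mg/kg. These 2 of the 36 pairs passed. How often pairs of other genes reach such values was not worked out, so this does not set the members apart. Of 14208 other genes, those most like Acsm5 over all arrays gave r = 0.60 (Gsta3), 0.66 (Adh5) and 0.53 (Adh1c) for these deviations. Those most like Acsm2 gave 0.69 (Cd209f), 0.57 (Adh5) and 0.60 (Aldh1a1). These genes were picked from many for their high correlation over all arrays. Glyat and Acsm5 gave r = 0.055 and Glyat and Ces2c r = -0.089. Vehicle replicate 3 and 0.55 mg/kg replicate 3 were low for Acsm5 and Acsm2 together, at 6.88 and 7.04 for Acsm5 and 6.12 and 6.13 for Acsm2. All points come from whole liver on the same platform, and the part of shared RNA quality or normalisation was not tested.

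**Figure D3:**
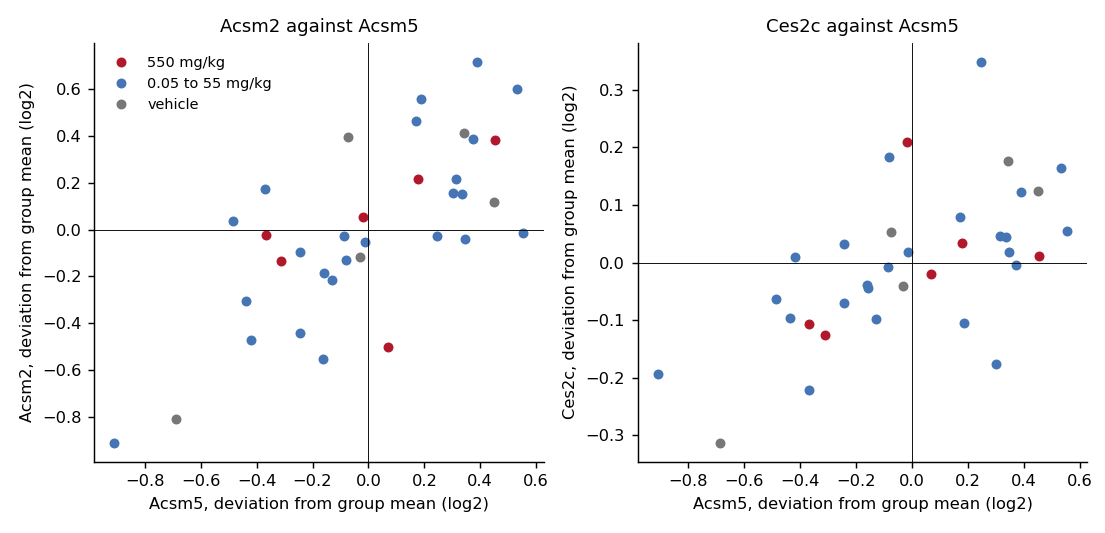
Deviation of each of the 35 arrays from its group mean on the log2 scale, for Acsm2 (left) and Ces2c (right) against Acsm5, with points coloured by 550 mg/kg, 0.05 to 55 mg/kg and vehicle. The points rise together, with r = 0.72 on the left and 0.60 on the right, and the pair of arrays at the lower left of the Acsm2 panel are 0.55 mg/kg replicate 3 and vehicle replicate 3.

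Acsm5 and Acsm2 are adjacent protein-coding genes on chromosome 1 in the GRCr8 gene table, and Ces1d and Ces1c are adjacent on chromosome 19. The Ces1 pair did not share the pattern of the Acsm pair: Ces1d and Ces1c gave r = -0.43 (permutation, p = 0.024, adjusted p = 0.15). Acsm3, also on chromosome 1, lies beside Eri2.

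The genes most like Ces2c, Acsm5 and Acy3 were sought among 14208 other genes by Pearson correlation over all 35 arrays. The shift at 550 mg/kg enters this measure. For Ces2c they were Gsta3, a glutathione S-transferase (r = 0.82, and 0.56 for deviations from the group means), Aig1 (0.79) and the peroxisomal enzyme Ehhadh (0.79). For Acsm5 they were again Gsta3 (r = 0.77, and 0.60 for deviations from the group means), Adh5 (0.77) and the alcohol dehydrogenase Adh1c (0.74). For Acy3 they were Serpina6, which encodes corticosteroid-binding globulin (r = 0.80, and 0.42 for deviations from the group means), the apolipoprotein Apoa1 (0.79) and Pheta1 (0.77). Beside these correlations, Gsta3 differed by 1.79 and Serpina6 by -0.43 at 550 mg/kg against vehicle.

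Other genes of the same pathways were read from 5 lists of 90 genes in all, of which 74 had a probe set with 1 symbol. At 550 mg/kg against vehicle, 2 of the 74 rose and 1 fell, where 0.354% of all probe sets were called higher and 0.145% lower. The lists, like the 9 members, were drawn up with earlier results of these data known, so these calls are descriptions and not independent support. The genes that rose were Glyatl2 and Slc27a2, and the gene that fell was Abhd2. The median difference of the 74 was 0.06, against 0.0024 over all probe sets. In limma 23 of the 74 reached an unadjusted p under 0.05, where 8.67% of all probe sets did. Nothing is read from this median or this count, for the same reason. At 55 mg/kg against the pooled low doses, 0 of the 74 passed in limma and 2 reached an unadjusted p under 0.05, as did 3.49% of all probe sets.

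Glyatl2, a relative of Glyat whose human counterpart joins longer acyl groups to glycine, had a lowest, median and highest value of 8.78, 8.93 and 9.11 at 550 mg/kg, against 8.30, 8.40, 8.37, 8.40 and 8.18 in vehicle. The groups did not overlap. Glyatl2 rose by 0.60 ± 0.09 (SE), or 1.52-fold (limma, adjusted p = 8.3e-05), and 550 mg/kg was also above 55 mg/kg by 0.51 ± 0.08 (adjusted p = 0.00050). Its means from vehicle upward were 8.33 ± 0.09, 8.18 ± 0.10, 8.26 ± 0.14, 8.43 ± 0.24, 8.42 ± 0.08 and 8.93 ± 0.13 (SD). At 55 mg/kg the difference from the pooled low doses was 0.13 (95% interval -0.003 to 0.27), which did not pass. Glyat and Glyatl2 thus lay at 0.11 ± 0.08 and 0.60 ± 0.09 against vehicle, a contrast that was not tested.

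Slc27a2, which activates very long-chain fatty acids and carries them into the cell, was 12.91, 12.98 and 13.02 (lowest, median and highest) at 550 mg/kg, against 12.77, 12.77, 12.76, 12.75 and 12.81 in vehicle. The groups did not overlap, and it rose by 0.20 ± 0.04 (SE), or 1.15-fold (limma, adjusted p = 0.0070). It was also above 55 mg/kg, by 0.16 ± 0.04 (adjusted p = 0.026). The call against vehicle was lost when only these 2 groups were fitted (adjusted p = 0.18, over alternatives from 9.4e-05 to 0.18). Abhd2, a serine hydrolase that cleaves monoacylglycerol, was 8.70, 8.93 and 9.25 at 550 mg/kg, against 9.46, 9.40, 9.64, 9.54 and 9.35 in vehicle. It fell by 0.55 ± 0.12 (SE) on the log2 scale, 1.46-fold lower, with groups that did not overlap (limma, adjusted p = 0.015). Against 55 mg/kg the groups overlapped and the difference of -0.39 ± 0.11 did not pass (adjusted p = 0.092). Its call against vehicle was lost without vehicle replicate 3 (adjusted p = 0.073) or 550 mg/kg replicate 2 (adjusted p = 0.054), over alternatives from 0.0051 to 0.073, and its 0.55 mg/kg mean was 9.21 ± 0.27.

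**Figure D4:**
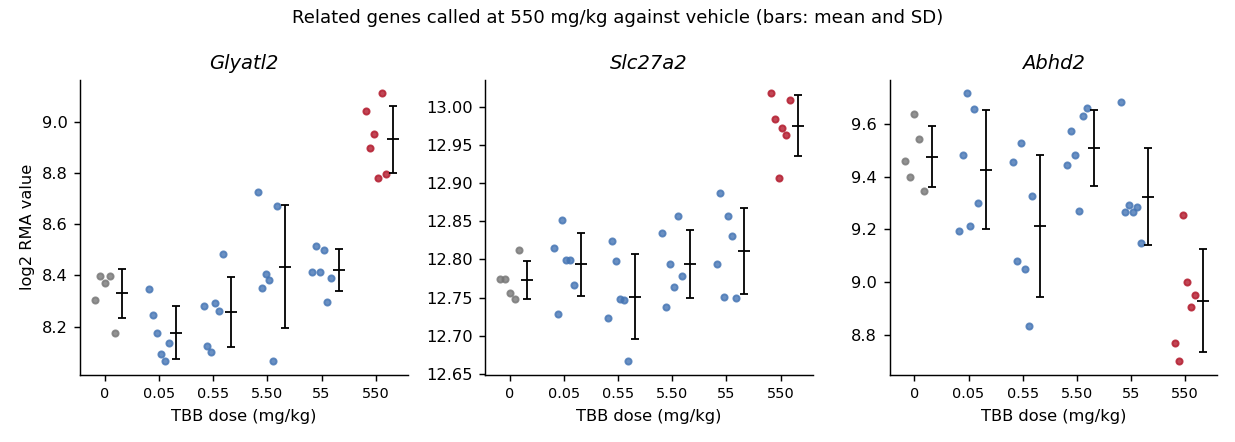
Log2 RMA values of Glyatl2, Slc27a2 and Abhd2 (vertical axes) in each of the 35 arrays by TBB dose in mg/kg (horizontal axes, 0 is vehicle), with bars for the mean and SD. Glyatl2 and Slc27a2 lie above and Abhd2 below vehicle in all 6 arrays at 550 mg/kg.

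The unadjusted counts by list that follow are descriptions at 550 mg/kg against vehicle, where 8.67% of all probe sets reached a p under 0.05. By list, 18 of 29 other ester hydrolases were measured, and 0 rose and 1 fell (median difference 0.09 at 550 mg/kg against vehicle). In limma 6 of these 18 reached an unadjusted p under 0.05. Of 20 acyl-CoA synthetases, fatty acid transport proteins and acyltransferases, 17 were measured, and 2 rose and 0 fell (median 0.03). Of these 17, 7 reached an unadjusted p under 0.05 in limma. The aminoacylases and dipeptidases had 7 of 8 measured with 0 calls and 3 at an unadjusted p under 0.05 in limma (median 0.07), and Aspa, which frees aspartate from its N-acetyl form, differed by 0.41 ± 0.20 (SE; adjusted p = 0.55). Without 550 mg/kg replicate 3, which stood at 6.92 against 5.57 to 6.01 in the other 5 arrays of that dose, the Aspa difference was 0.21. Genes of glycine supply had 16 of 17 measured with 0 calls and 5 at an unadjusted p under 0.05 (median 0.08), and Agxt, which makes glycine from glyoxylate, differed by -0.36 ± 0.10 (adjusted p = 0.12). Against 55 mg/kg Agxt fell by 0.39 ± 0.10 on the log2 scale, just inside the threshold (limma, adjusted p = 0.04995), with 5 of 6 arrays at 550 mg/kg below the lowest at 55 mg/kg. All 16 genes of coenzyme A supply were measured, with 0 calls and 2 at an unadjusted p under 0.05 (median 0.02), and Enpp1 differed by 0.37 ± 0.34 (adjusted p = 0.83). The 6 other Ces2 genes of the list had no probe set with their symbol alone and were not analysed here.

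**Figure D5:**
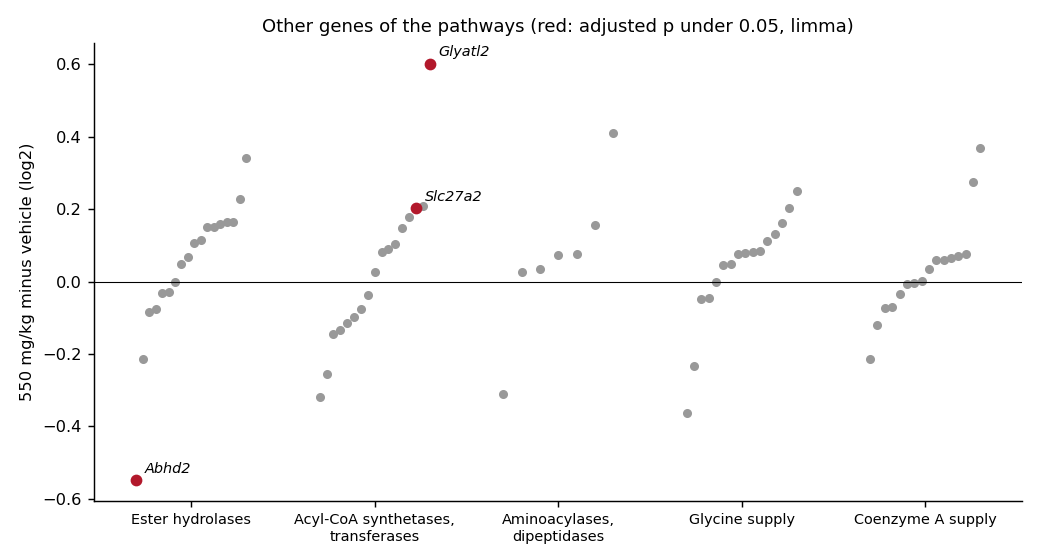
Difference of 550 mg/kg minus vehicle on the log2 scale (vertical axis) for the 74 measured genes of the 5 lists (horizontal axis), each point a gene, ordered within its list. The 3 genes past the threshold are red, Glyatl2 at 0.60, Slc27a2 at 0.20 and Abhd2 at -0.55.

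The labelled tissue was checked against hepatocyte markers. Of 11 listed, 10 were measured, and their vehicle means stood at percentiles 94.0 to 100 of all probe sets. Their mean level lay between 13.16 and 13.23 at 550 mg/kg, against 13.25 to 13.39 in vehicle, so the groups did not overlap. The gap was small, and how often a mean of 10 probe sets does this was not worked out. At 55 mg/kg this mean level lay between 13.13 and 13.36. In limma 1 of the 10 passed at 550 mg/kg against vehicle (Apoa1, which is also among the genes most like Acy3), where 0.499% of all probe sets passed. Of the other lists, 7 of 10 Kupffer cell markers were measured and lay between 8.04 and 8.68 at 550 mg/kg, against 8.41 to 8.80 in vehicle, and 3 of 5 red blood cell markers lay between 7.46 and 7.87 at 550 mg/kg, against 7.79 to 8.25 in vehicle. Both of these ranges overlapped those of vehicle, and the Kupffer mean of 8.35 at 550 mg/kg was near the 8.36 at 0.55 mg/kg. Endothelial, stellate, bile duct, lymphocyte and neutrophil marker levels also overlapped between 550 mg/kg and vehicle. In limma each of these other lists had 0 calls in that comparison. The part of the marker levels in the values above was not tested, and in whole liver fewer cells of a type and less RNA per cell cannot be told apart.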

How the data were processed

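The authors deposited log2 expression values per probe set, made with RMA in affy according to the submitters' processing notes (per the labels). RMA by definition normalises arrays to a common distribution, so a shift common to most genes is hidden, and folds of dim probe sets are shrunk. The versions and chip definition were not given in sources used here. Per the labels, RNA needed an integrity number of at least 7.0. Of the probe sets, 57 controls were left out and 31042 tested, of which 20826 had a single gene symbol in the platform annotation, 436 several and 9780 none. Symbols were matched to the GRCr8 gene table through Entrez identifiers.

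R 4.3.3 and limma 3.58.1 were used with 1 mean per group over all 35 arrays, contrasts, eBayes and Benjamini-Hochberg adjustment over all probe sets, two-sided. The authors compared each dose with vehicle in maanova, per the series' design text, which was not used here. The fit was tested on simulated data. Pairwise array correlations ran from 0.988 to 0.997, with 0 identical pairs, and the number of arrays limits the precision (median SE 0.085 at 550 mg/kg against vehicle). The members and lists were chosen with earlier results of these data known. All members were named. Of each related list, called genes were named, otherwise the one with the widest difference at 550 mg/kg. The 3 most correlated genes were named for Ces2c, Acsm5, Acsm2 and Acy3. Alternatives were other normalisations, a filter, variance settings, smaller fits, array weights, a replicate block, gene means and left-out arrays. Figures used matplotlib 3.10.9.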

Additional observations from a re-analysis of the deposited data

Results flagged for a closer look

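In 4 of 54 sets of arrays (9 genes in 6 groups), the highest or lowest array was separated from the rest by more than Dixon's 95% critical value, where chance gives about 1 in 20. They were Acsm5 in 0.55 mg/kg replicate 3 (7.04, lowest of 6), Acy1 in 0.55 mg/kg replicate 2 (10.03, lowest of 6), Acy3 in 0.05 mg/kg replicate 4 (9.36, lowest of 6) and Ces1c in 550 mg/kg replicate 1 (13.42, highest of 6). No array was set apart for more than 1 gene.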

How the results depend on the processing

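The count of members passing was 0 for 55 mg/kg against the pooled low doses, 5.50 mg/kg against the 2 lower doses, 55 mg/kg against vehicle and the pooled low doses against vehicle under all 9 alternatives and with each array of the groups compared left out in turn. At 550 mg/kg against vehicle the count of 3 members became 1 when only the 2 groups were fitted, 2 with the replicate block and 2 without variance moderation, and ran from 1 to 3 with single arrays of these groups left out. The count of related genes passing at 550 mg/kg was 3 in the main setting, 5 without variance moderation and 2 to 5 over the alternatives, and 2 to 3 with single arrays left out. At 55 mg/kg it was 0 throughout. The cause of these moves was not tested. Over all probe sets, 155 passed at 550 mg/kg, 41 when only the 2 groups were fitted and 77 to 142 with single arrays left out (77 without vehicle replicate 3, 82 without vehicle replicate 1 and 88 without 550 mg/kg replicate 2). In the comparisons among lower doses and vehicle the count stayed between 0 and 3. The call of Slc27a2 was lost when only the 2 groups were fitted (adjusted p = 0.18), and no member or named related gene with a call changed direction.

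Replicate numbers showed no clear pairing of the arrays over all probe sets. Same-numbered arrays of different groups had correlations of their deviations from -0.31 to 0.27 (median -0.009, 17 of 85 over 0.1). The median between different numbers was -0.001, and 7 of 35 arrays correlated best with their own number. A pairing of some arrays or of single genes was not tested. With the number as a block, 115 probe sets passed at 550 mg/kg against vehicle, and 155 without it. RMA values give no depth, and the array number sets the precision.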
